A study of Mus musculus with 6 samples.

Results

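The Kruppel-like factors measured here were 10 genes of this transcription factor family, Klf2, Klf3, Klf4, Klf6, Klf7, Klf9, Klf10, Klf11, Klf12 and Klf13. They were taken by symbol from 41079 genes, and all 10 had enough counts to be tested. RNA-seq was performed on 6 libraries of cultured microglia, 3 control and 3 stimulated, from brains of C57Bl/6N pups aged 1 to 3 days. In both groups, mixed glia from pooled brains had been fed medium conditioned by L-929 cells, which is rich in M-CSF, and the microglia had then been shaken off the flasks and plated briefly with serum. Control cells were kept in DMEM/F12 without serum. Stimulated cells received human TGFbeta, IL34 and CX3CL1 at 100 ng/mL each, and by the study's methods also a collagen IV coating, insulin-transferrin-selenium and cholesterol, which the labels do not name. Effects of single components of the mixture cannot be told apart, and the time in culture is not given in the sources used here. The comparison asks how the family stood in a medium meant to restore homeostatic microglial expression.

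Kruppel-like factors bind GC-rich DNA, in particular GC boxes and CACCC elements, through a run of zinc fingers at the C-terminus, and they share these sites with the related Sp factors. The zinc fingers are alike across the family, while the N-terminal parts differ and recruit different partners. KLF2, KLF4, KLF6 and KLF7 are grouped here as activators, KLF3 and KLF12 bind the corepressor CtBP, and KLF9, KLF10, KLF11 and KLF13 bind the corepressor SIN3A. In myeloid cells KLF2 and KLF4 are known for restraining inflammatory activation and KLF6 for favouring it. KLF10 and KLF11 were first described as early genes induced by TGF-β.

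Levels of 1 gene are given as CPM, counts scaled to library size with TMM factors, and levels of different genes as FPKM, which is also scaled to gene length. In stimulated cultures Klf11 and Klf12 rose, by 2.48-fold and 2.31-fold, and Klf6 and Klf7 fell, to 0.629 and 0.504 of their control level. The other 6 members did not pass the test. In such bulk RNA, fewer cells of a type and less RNA per cell cannot be told apart. Thus 4 of the 10 members passed at an adjusted p-value below 0.05, 2 in each direction (edgeR, quasi-likelihood, adjusted by Benjamini-Hochberg over all 14618 genes tested). Over all genes tested the share was 29.8%, with 14.7% higher and 15.2% lower, so the members were called at a share not far from that of all genes. The median log2 fold change of the members was 0.10, beside 0.01 over all genes tested. This balance of directions over all genes rested on the scaling. Of the genes called, 49.1% were higher with TMM scaling, 32.3% when scaled by library size alone and 28.4% by limma for genes of mean FPKM of at least 1, and library size alone moved the median over all genes to -0.12.

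The promoters of the members that changed, and of Klf10, are shown because 2 of them rose and 2 fell, and because Klf10, the close relative of Klf11, did not pass. Each is the 250 bases upstream of the canonical GENCODE M39 transcript start, read on the strand of the gene from GRCm39 (the build of the alignment, mm39). Annotated exons, of any gene and on either strand, cover 172 bases of the Klf11 window, 250 of Klf12, 95 of Klf10 and 0 of Klf6 and Klf7. The window of Klf11 lies at chr12:24701023-24701272 (plus strand), Klf12 at chr14:100522429-100522678 (minus), Klf6 at chr13:5911231-5911480 (plus), Klf7 at chr1:64160713-64160962 (minus) and Klf10 at chr15:38300960-38301209 (minus). Capitals mark matches, on either strand, to the CACCC box (CACCC), the GC box (GGGCGG) and the SMAD-binding element (CAGAC).
Klf11: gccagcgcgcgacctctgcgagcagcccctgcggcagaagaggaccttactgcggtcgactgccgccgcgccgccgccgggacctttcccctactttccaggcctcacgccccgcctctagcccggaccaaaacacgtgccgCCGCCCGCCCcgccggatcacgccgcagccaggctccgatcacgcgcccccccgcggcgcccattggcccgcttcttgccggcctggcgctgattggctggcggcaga
Klf12: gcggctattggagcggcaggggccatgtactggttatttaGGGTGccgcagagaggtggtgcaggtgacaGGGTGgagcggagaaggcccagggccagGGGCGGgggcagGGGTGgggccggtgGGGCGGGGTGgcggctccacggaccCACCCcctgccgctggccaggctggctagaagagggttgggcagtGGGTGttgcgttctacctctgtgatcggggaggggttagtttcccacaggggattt
Klf6: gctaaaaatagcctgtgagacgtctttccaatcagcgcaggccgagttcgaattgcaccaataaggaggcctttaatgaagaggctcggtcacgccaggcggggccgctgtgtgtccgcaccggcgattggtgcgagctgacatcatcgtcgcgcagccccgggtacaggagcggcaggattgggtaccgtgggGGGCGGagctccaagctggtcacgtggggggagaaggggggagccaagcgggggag
Klf7: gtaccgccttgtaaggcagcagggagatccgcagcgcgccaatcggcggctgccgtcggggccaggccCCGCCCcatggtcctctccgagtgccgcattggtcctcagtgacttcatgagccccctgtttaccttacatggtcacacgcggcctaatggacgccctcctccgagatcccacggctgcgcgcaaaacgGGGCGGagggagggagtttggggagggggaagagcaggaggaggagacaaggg
Klf10: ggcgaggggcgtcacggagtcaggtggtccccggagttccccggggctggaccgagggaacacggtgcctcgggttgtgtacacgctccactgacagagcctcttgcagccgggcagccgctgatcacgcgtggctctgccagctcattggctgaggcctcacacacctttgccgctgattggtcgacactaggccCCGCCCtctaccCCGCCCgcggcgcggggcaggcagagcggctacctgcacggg

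The windows were rich in G and C, with 74.0% in Klf11, 67.6% in Klf12, 63.2% in Klf6, 66.0% in Klf7 and 69.6% in Klf10, against a median of 53.2% over 21751 protein-coding genes. GC boxes were found in 9 of the 10 members, and in 36.3% of all windows of the same length. Klf9 was the member without one, and its window had the lowest G and C content of the 10, at 46.4%. Annotated exons cover all 250 bases of this Klf9 window. The CACCC box was found in 5 members and in 52.9% of all windows. Klf12 held 6 of them, the highest number among the members, while Klf11, Klf6, Klf7 and Klf10 held 0. CAGAC was found in the windows of Klf2 and Klf3, and in 41.3% of all windows. Of these 2 windows, that of Klf3 is covered by annotated exons over 250 bases and that of Klf2 over 0. Neighbouring matches overlapped by 2 bases in Klf11 and by 1 base in Klf12. A match is a description of the letters, and binding was not measured.

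**Figure D1:**
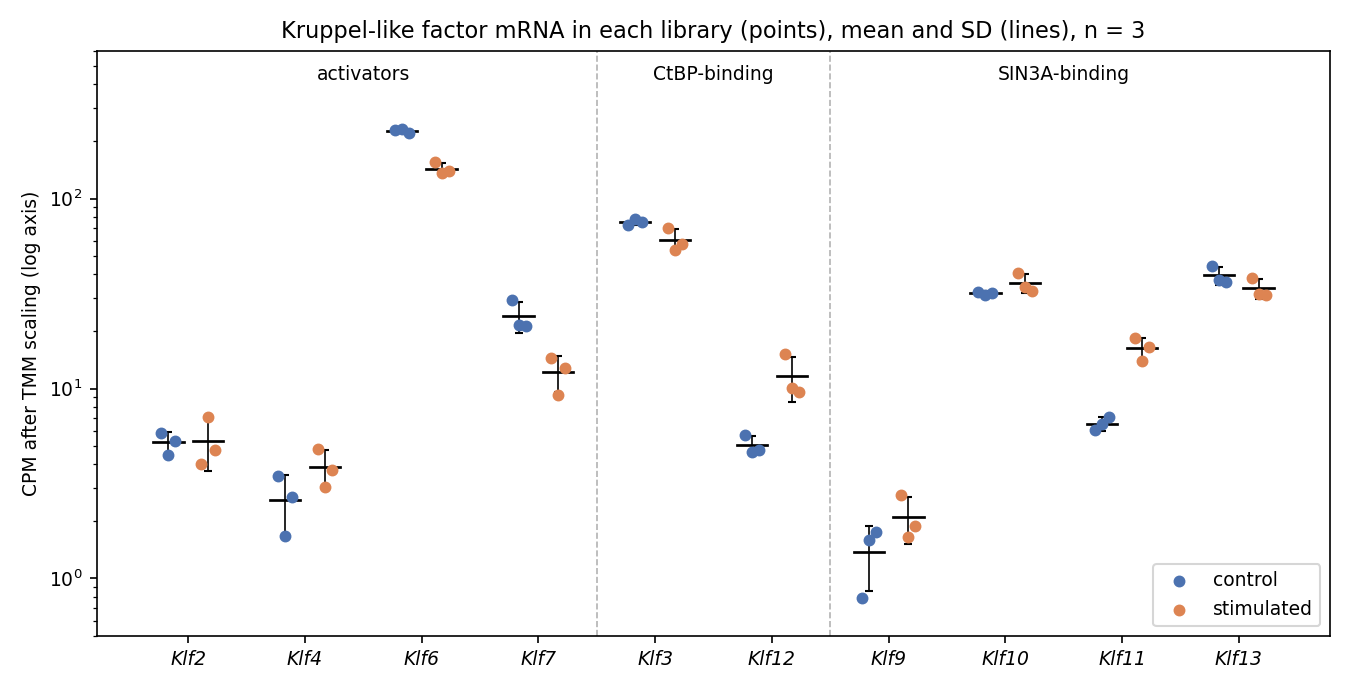
Normalised counts (CPM) after TMM scaling, on a log axis, of each member in each of the 6 libraries, with the group mean and SD (lines) and the members grouped by their known partners. Klf6 and Klf7 sit lower and Klf11 and Klf12 higher in all 3 stimulated libraries.

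The activators held the most abundant member. Klf6, on chromosome 13 of GRCm39 from 5911481 to 5920393, had 229, 234 and 220 CPM in control libraries 1 to 3 and 155, 136 and 139 CPM in stimulated libraries 1 to 3. The groups did not overlap, and the gap between them was wider than the spread within either. Its mean was 228 ± 6.89 CPM in control and 143 ± 10.7 CPM in stimulated cultures (SD, n = 3 each). On the log2 scale Klf6 fell by 0.67 (SE 0.09, edgeR adjusted p = 0.00024).

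Klf7, named ubiquitous Kruppel-like factor and known from axon growth of neurons, lies on chromosome 1 from 64068606 to 64161508. It had 29.4, 21.7 and 21.3 CPM in control and 14.4, 9.28 and 12.8 CPM in stimulated libraries. Control library 1 stood above the other controls, and still every stimulated library was below every control library. It fell by 0.99 on the log2 scale (SE 0.18, edgeR adjusted p = 0.0023). Its 95% interval, -1.39 to -0.58, overlapped that of Klf6, -0.86 to -0.48.

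Klf2 and Klf4, the members best known for restraining activation of myeloid and endothelial cells, were expressed at low levels and did not pass the test. Klf2, on chromosome 8 from 73072726 to 73075502, had 5.86, 4.49 and 5.27 CPM in control and 4.02, 7.11 and 4.74 CPM in stimulated libraries. The highest and the lowest of these values were both from stimulated libraries. Its log2 fold change was 0.03 with a 95% interval from -0.47 to 0.53, and the sign was negative with library size alone and with FPKM. Klf4, on chromosome 4 from 55527139 to 55532528, had 3.45, 1.67 and 2.67 CPM in control and 4.78, 3.02 and 3.72 CPM in stimulated libraries, from 41 to 101 counts per library. Its log2 fold change was 0.56, with an interval from -0.08 to 1.21.

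Among the repressors that bind CtBP, 1 rose and 1 did not pass. Klf12, described as a repressor of the AP-2alpha gene, spans chromosome 14 from 100103674 to 100522428. It had 5.68, 4.65 and 4.72 CPM in control and 15.2, 10.01 and 9.58 CPM in stimulated libraries. Stimulated library 1 was the highest, and the other two were also above every control. Klf12 rose by 1.21 on the log2 scale (SE 0.20, edgeR adjusted p = 0.0011).

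Klf3, also called basic Kruppel-like factor and known from red cell and B cell development, lies on chromosome 5 from 64959875 to 64990261. It had 72.8, 78.2 and 74.9 CPM in control and 70.0, 53.4 and 57.9 CPM in stimulated libraries. The groups did not overlap, but stimulated library 1 was close to the controls. Its log2 fold change of -0.32 (SE 0.11) missed the threshold by a narrow margin, at an edgeR adjusted p of 0.0505. The value passed in 8 of 15 other settings, and its direction was negative in all 15. Without stimulated library 1 it was -0.44, with an edgeR adjusted p of 0.00063.

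Of the 4 SIN3A-binding members, Klf11 rose and the other 3 did not pass. Klf11, on chromosome 12 from 24701273 to 24712913, had 6.03, 6.48 and 7.10 CPM in control and 18.4, 13.9 and 16.5 CPM in stimulated libraries. The lowest stimulated library was well above the highest control. Mean CPM were 6.54 ± 0.54 and 16.2 ± 2.26 (SD, n = 3 each), and Klf11 rose by 1.31 on the log2 scale (SE 0.14, edgeR adjusted p = 7.1e-05). On the log2(FPKM + 1) scale, where low genes are compressed, the differences were 0.83 for Klf11 and 0.24 for Klf12, and both still passed.

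Klf10, the other early gene of TGF-β, lies on chromosome 15 from 38291703 to 38300959. It had 32.4, 31.0 and 31.9 CPM in control and 40.5, 34.3 and 32.7 CPM in stimulated libraries. The stimulated libraries were above the controls in CPM by a small distance, whereas the deposited FPKM values overlapped, with 7.73 to 8.34 in control and 7.52 to 9.62 in stimulated cultures. Its log2 fold change of 0.17 did not pass (edgeR adjusted p = 0.24), with a 95% interval of -0.05 to 0.40. The interval of Klf11, from 1.00 to 1.62, lay entirely above that of Klf10.

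Klf13, known from T cells as a factor at the Ccl5 promoter, lies on chromosome 7 from 63536099 to 63588663. It had 44.3, 37.4 and 36.5 CPM in control and 38.4, 31.3 and 31.2 CPM in stimulated libraries. The groups overlapped through stimulated library 1. Its log2 fold change of -0.23, with an interval from -0.49 to 0.03, did not pass (edgeR adjusted p = 0.18). When stimulated library 1 was left out it passed, at -0.33 with an edgeR adjusted p of 0.019. With Klf3, this raised the number of members called lower from 2 to 4. Klf9, a gene induced by glucocorticoids and thyroid hormone, lies on chromosome 19 from 23118187 to 23148497. It had only 18, 39 and 48 counts in control and 58, 39 and 39 counts in stimulated libraries. Its libraries overlapped, and its log2 fold change of 0.59 did not pass, with an interval from -0.18 to 1.37.

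**Figure D2:**
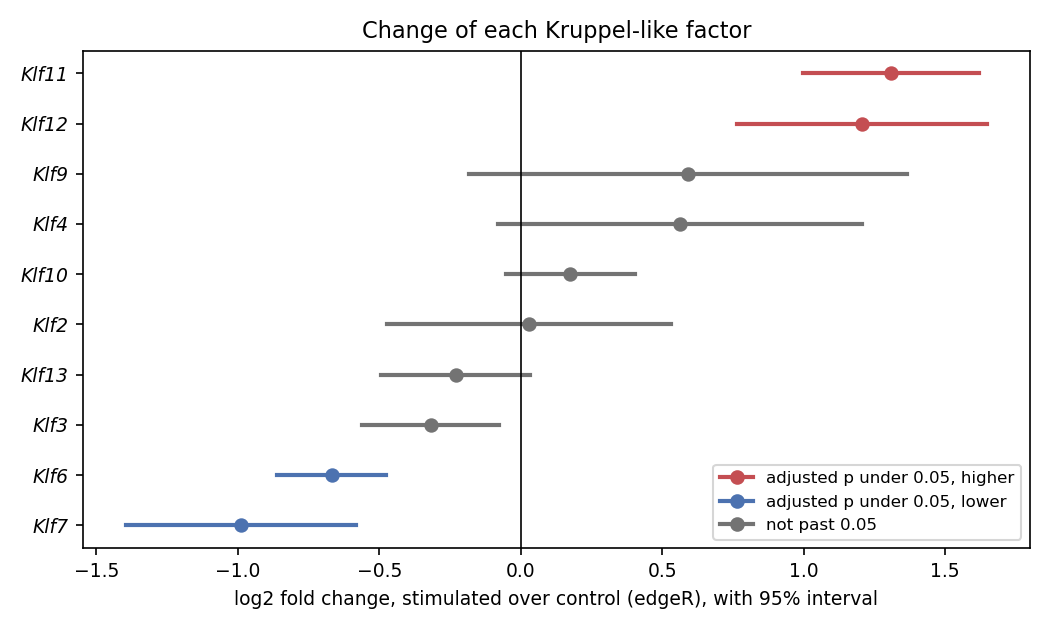
Log2 fold change of each member (points) with its 95% interval (lines) from edgeR's quasi-likelihood test. Klf11 and Klf12 lie above 1, Klf7 and Klf6 lie below -0.5, and the intervals of 5 of the other members cross 0, with Klf3 just below it.

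In CPM the libraries of the groups did not overlap in 6 of the 10 members, which were the 4 that passed the test together with Klf3 and Klf10. Over all genes tested this share was 43.9%. Stimulated library 1 had the highest CPM of its group in 9 of the 10 members, the exception being Klf2. The matching share over all genes was not computed. Stimulated library 1 also stood apart over the whole table. Chi-square per degree of freedom of its counts was 78.3 against library 2 and 46.2 against library 3, beside 14.5 between those libraries. Without stimulated library 1 Klf11 had a log2 fold change of 1.21, Klf12 of 0.97, Klf6 of -0.73 and Klf7 of -1.13, and all 4 still passed the test.

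**Figure D3:**
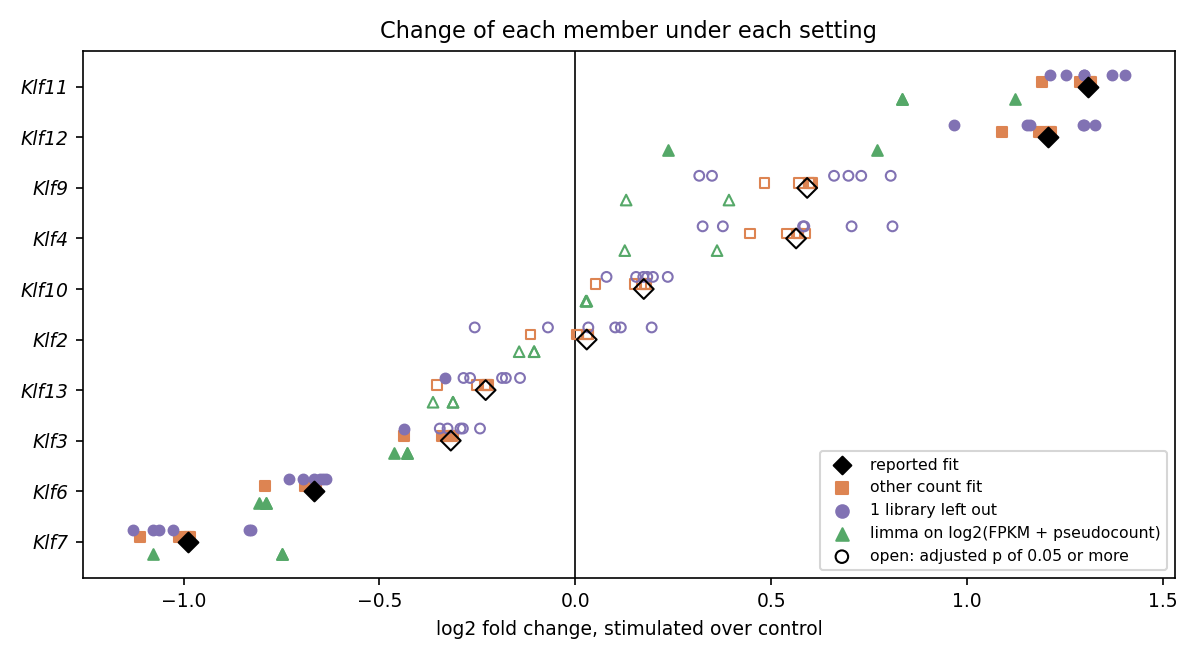
Log2 fold change of each member (horizontal axis) in the reported fit and under each other setting, with filled symbols for an adjusted p-value under 0.05 and open symbols otherwise. Klf11, Klf12, Klf6 and Klf7 are filled in every setting that could test them, Klf3 is filled in 8 of 15, and Klf2 falls on both sides of 0.

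Levels of different genes were compared in FPKM, which divides by gene length. In control cultures Klf6 stood first at 54.9 ± 3.61 FPKM, followed by Klf3 at 14.3 ± 0.81, Klf10 at 8.04 ± 0.31 and Klf13 at 6.27 ± 0.82 (SD, n = 3 each). These 4 did not overlap between neighbours. Klf7 at 3.00 and Klf2 at 2.91 FPKM overlapped, Klf11 at 1.67 FPKM stood apart from both, and Klf4, Klf9 and Klf12, at 0.349, 0.311 and 0.197 FPKM, each overlapped the next.

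In stimulated cultures Klf6 was again first, at 31.4 ± 3.48 FPKM. Klf3 at 10.5 and Klf10 at 8.25 FPKM now overlapped, and so did Klf13 at 4.86, Klf11 at 3.78 and Klf2 at 2.67 FPKM, each with the next. Klf7, above Klf11 in control, was below it at 1.38 FPKM. Klf4, Klf9 and Klf12 remained last, at 0.472, 0.435 and 0.415 FPKM, with overlapping libraries.

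The lengths behind the deposited FPKM values were not those of the canonical transcripts for every member. Relative to Klf6, the length used for Klf12 was 6.13 in the FPKM values and 2.51 by canonical transcript, and that for Klf4 was 1.79 and 0.72. For Klf10 it was 0.95 and 0.72. The length for Klf9 differed in the other direction, at 1.06 in the FPKM values and 1.87 by canonical transcript. Per kilobase of canonical transcript, Klf12 had 0.474 CPM in control and 1.09 CPM in stimulated cultures, and Klf9 had 0.175 and 0.266 CPM. By this measure Klf9 and not Klf12 was the lowest member in both groups, and Klf10 at 11.7 CPM per kilobase stood beside Klf3 at 11.5 in stimulated cultures.

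**Figure D4:**
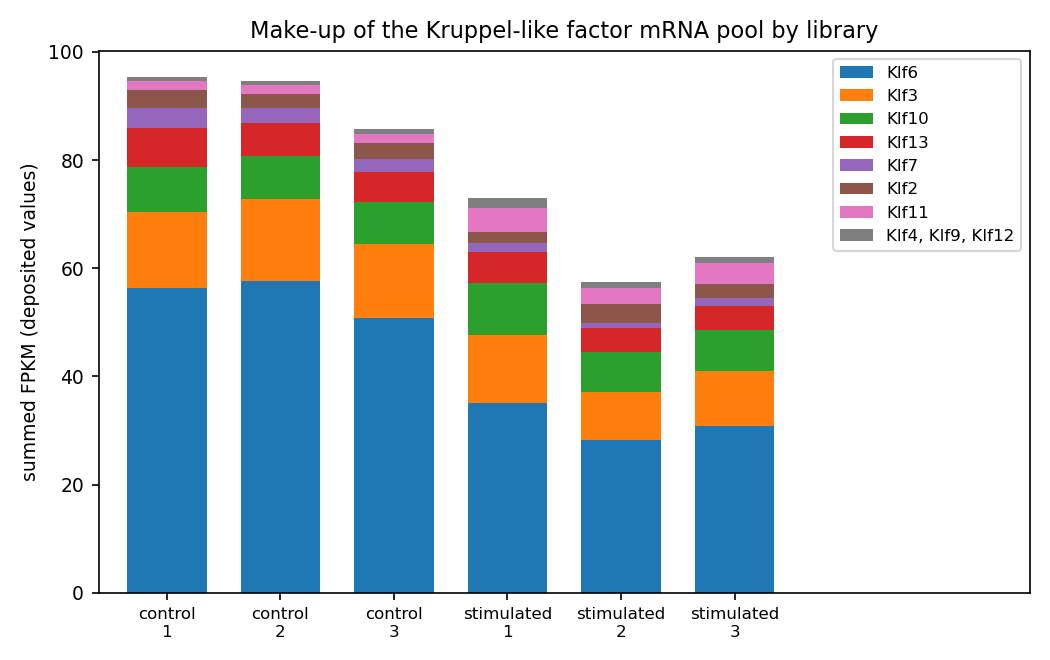
Deposited FPKM of the 10 members stacked for each of the 6 libraries, in summed FPKM on the vertical axis, with Klf4, Klf9 and Klf12 added together. The stacks run from 85.7 to 95.5 in control and from 57.4 to 72.9 in stimulated libraries, without TMM scaling. The Klf6 block is the largest in every library.

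Summed over the 10 members, FPKM were 95.5, 94.7 and 85.7 in control and 72.9, 57.4 and 62.1 in stimulated libraries. These FPKM carry no TMM factors. By limma, the median log2 fold change over genes of mean FPKM of at least 1 was -0.13. With TMM it was 0.01 over all genes tested, and what the scaling contributed to the sums was not tested. Klf6 alone made up 59.0%, 60.8% and 59.3% of this sum in control and 48.2%, 49.3% and 49.6% in stimulated libraries. The summed level of the 4 activators was 61.2 ± 4.06 FPKM in control and 35.9 ± 3.31 in stimulated cultures, most of it Klf6. The sum of Klf3 and Klf12 was 14.5 ± 0.81 against 10.9 ± 1.99 FPKM, most of it Klf3, which did not pass the test. Klf12 itself rose, and the sums were not tested. The 4 SIN3A-binding members summed to 16.3 ± 0.94 and 17.3 ± 2.66 FPKM, with overlapping libraries, most of it Klf10 and Klf13 (SD, n = 3 each).

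A ratio of 2 members within a library does not depend on the scaling between libraries. Its size depends on the gene lengths behind the FPKM, whereas its log2 difference between the groups does not. The 5 pairs with a shared partner or role were compared by the exact permutation test, two-sided, for which 0.1 is the smallest p-value that 3 against 3 libraries allow. Klf10 exceeded Klf11 by 5.32, 4.75 and 4.45 times in control and by 2.19, 2.45 and 1.97 times in the stimulated libraries. The log2 ratio was 2.27 ± 0.13 in control and 1.13 ± 0.16 in stimulated cultures, a difference of -1.14 (exact permutation p = 0.1, adjusted p = 0.125 over 5 pairs).

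Klf3 exceeded Klf12 in FPKM by 62.0, 81.3 and 76.7 times in control and by 22.3, 25.8 and 29.2 times in stimulated libraries. The gap was smaller per kilobase of canonical transcript. There Klf3 and Klf12 had mean CPM of 14.3 and 0.474 in control and of 11.5 and 1.09 in stimulated cultures. The log2 ratio was 1.51 lower in stimulated cultures, at 4.68 ± 0.19 against 6.19 ± 0.21. That of Klf9 to Klf13 was 0.89 higher, at -3.52 ± 0.22 against -4.40 ± 0.78, and control library 1 was the lowest of all. Without that library the difference for Klf9 to Klf13 was 0.44. That of Klf6 to Klf7 was 0.33 higher, at 4.54 ± 0.25 against 4.21 ± 0.25. Its groups were barely apart, and the difference was 0.18 without control library 1 and also without stimulated library 2. For these 3 pairs the exact permutation p was 0.1 and the adjusted p 0.125. The ratio of Klf2 to Klf4 overlapped, with 7.05, 11.2 and 8.20 in control and 3.50, 9.78 and 5.29 in stimulated libraries (exact permutation p = 0.3, adjusted p = 0.3). Per kilobase of canonical transcript these 2 genes were closer. Klf2 and Klf4 had mean CPM of 2.61 and 0.857 in control and of 2.65 and 1.27 in stimulated cultures.

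**Figure D5:**
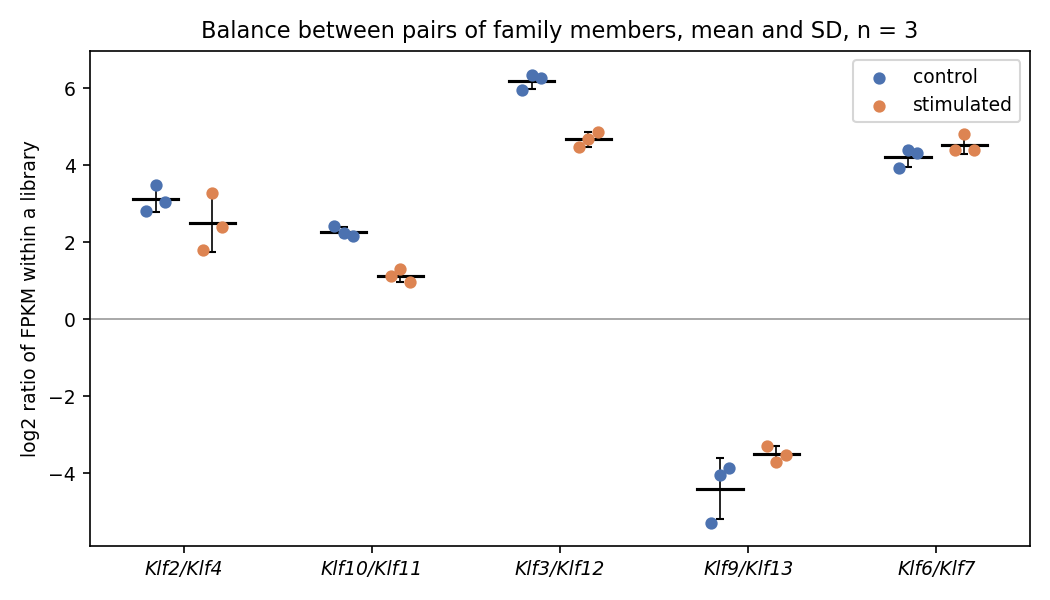
Log2 ratio of FPKM between 2 members in each library (points), with the mean and SD of each group (lines, n = 3). The Klf10/Klf11 and Klf3/Klf12 ratios are lower in all 3 stimulated libraries, and the Klf2/Klf4 ratios overlap.

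The rest of the family was barely expressed or did not pass the test. Of 16 other Klf and Sp genes, which read the same GC-rich sites, 5 were tested and 0 passed by edgeR or by DESeq2. At an unadjusted p-value under 0.05 by edgeR there was 1, Sp2, named after its value was seen, at a log2 fold change of -0.26, and the 5 ranged from -0.26 to 0.25. With library size alone 1 of the 5 fell. Klf16, named here after its values were seen because it is the other SIN3A-linked Klf gene tested, had 14.7 ± 1.43 CPM in control and 15.3 ± 2.69 CPM in stimulated cultures, with a 95% interval of its log2 fold change from -0.26 to 0.39. Klf1, Klf5, Klf8, Klf14, Klf15, Klf17, Sp5, Sp6, Sp7, Sp8 and Sp9 were too low to test, at 16 counts or fewer in every library, and 2 of them, Klf14 and Klf17, had 0 counts in all 6.

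Partners of the family moved in both directions. Of 12 corepressors, coactivators and ubiquitin ligases that act on these factors, 2 rose, 2 fell and 8 did not pass, with a median log2 fold change of 0.04. Over all genes tested 14.7% were called higher and 15.2% lower, and the counts of the partners were near these shares. The same shares stand beside the counts of the other gene lists. Crebbp, a histone acetyltransferase, rose by 0.77 on the log2 scale, and Smurf1, a ubiquitin ligase of the TGF-β pathway, by 0.47. Kat2b, the acetyltransferase also called PCAF, fell by 0.53, and Wwp1, a ubiquitin ligase for KLF2 and KLF5, fell by 0.30 on the same scale. With library size alone, 2 rose and 3 fell.

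The kinase route from MEKK3 through ERK5 to MEF2 is known for inducing Klf2 and Klf4. Of its 7 genes, Mef2a rose, from 109 ± 3.83 to 260.4 ± 37.4 CPM, and Map3k3, which encodes MEKK3, fell by 0.30 on the log2 scale from 95.6 ± 5.74 to 77.4 ± 4.85 CPM (SD, n = 3). The other 5 did not pass, and the median log2 fold change was -0.17. The 2 that passed of 7 were near the share of 29.8% over all genes tested. With library size alone as the scale, 1 rose and 3 fell.

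Of 9 genes that KLF2 or KLF4 are known to regulate in macrophages or endothelium, 5 had enough counts, and 2 rose and 3 fell, with a median log2 fold change of -0.67. S1pr1, a sphingosine-1-phosphate receptor, rose by 1.35 on the log2 scale. Arg1, the arginase of alternatively activated macrophages, passed at very low counts, with 3, 3 and 2 in control and 26, 14 and 14 in stimulated libraries. Mrc1, the mannose receptor, fell by 2.40, Cdkn1a, the cell cycle inhibitor p21, fell by 1.10, and Thbd, thrombomodulin, named after its value was seen, fell by 0.67. Klf2 and Klf4 themselves did not pass the test.

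The 8 listed feedback and target genes of SMAD signalling all rose, with a median log2 fold change of 2.52. Through this pathway TGF-β is known to induce Klf10 and Klf11. Pmepa1, which restrains SMAD activation, rose from 16.1 ± 1.11 to 379 ± 21.2 CPM (SD, n = 3). The smallest rises were those of Ski and Tgif1, both SMAD corepressors, at 1.67 and 0.36 on the log2 scale. With library size alone, 7 of the 8 rose. The log2 fold change of Klf11, 1.31, lay as an estimate between these last values, and that of Klf10, 0.17, lay below the whole list.

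Of 8 glucocorticoid and clock genes, chosen because Klf9 is induced by glucocorticoids, 3 rose and 2 fell, with a median log2 fold change of 0.11. Sgk1, a kinase induced by glucocorticoids and by TGF-β, rose by 3.44 and Fkbp5, a chaperone of the glucocorticoid receptor, by 1.57. Dusp1, a phosphatase of MAP kinases, fell by 1.16, and Dbp, a clock output gene, fell by 0.88 on the log2 scale. With library size alone, 3 rose and 4 fell.

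The libraries held 20628148 to 27261839 counts, and the coefficient of variation between replicates was 0.128 in the fit. The labelled cell type was checked by the summed CPM of 9 microglial markers, which lay between 6509 and 6690 in control and between 11616 and 14118 in stimulated libraries. Of the 9, 7 rose and 2, Csf1r and Aif1, named after their values were seen, fell, by 0.39 and 0.45 on the log2 scale. Astrocyte markers (4 genes) summed to 22.2 to 25.0 CPM in control and 10.8 to 12.4 in stimulated libraries. Of these 4, 1 was lower, Aldh1l1, with means of 16.5 and 4.64 CPM, and the fall of the sum was mostly this gene. The other 3 did not pass, and 1 of the 4 had a log2 fold change above 0. Oligodendrocyte lineage markers (6 genes) summed to 128 to 143 and 160 to 192 CPM, with 1 of 6 higher, Mbp, at means of 94.2 and 119 CPM. With library size alone 0 of these 6 passed, and with DESeq2 2 passed. Neuronal markers (5 genes) summed to 2.05 to 3.41 and 3.93 to 4.26 CPM. Of 3 tested, 1 was higher, Nefl, at means of 0.227 and 1.14 CPM. Mbp and Nefl made up most of the rise of their sums. Endothelial markers (5 genes) summed to 4.42 to 4.81 and 4.77 to 6.29 CPM. Fibroblast and mural markers (6 genes) summed to 19.4 to 25.5 CPM in control and 19.9 to 77.0 CPM in stimulated libraries, highest in stimulated library 3. In these 2 lists 0 genes passed by edgeR or DESeq2, and 0 and 1 had an unadjusted edgeR p-value under 0.05. No marker was at 0 in all libraries, and the part of other cells in the members' values was not tested.

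Reads from overlapping genes bear on some members. On the opposite strand, annotated exons share 62 bases with Klf10, 35 with Klf12 and 7 with Klf7, and these neighbours had at most 13, 4 and 46 counts in any library. For Klf3 and Klf9, genes that were not analysed here share 4.29% and 4.05% of the exon bases. The strand setting of the counting is not given in the sources used here, so such reads cannot be told apart from those of the member.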

How the data were processed

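RNA-seq was performed on 6 libraries of neonatal mouse microglia, 3 control and 3 stimulated. The authors aligned reads with HISAT2 to mm39 and counted them per gene with featureCounts, and versions are not given in the sources used here. The authors deposited a table of raw counts and a table of FPKM (fragments scaled to gene length and library size), each with 41079 genes and the 6 libraries. All columns were mapped to samples by name. The study calls the libraries biological replicates, but the labels name no separate cultures, so p-values measure only the spread between these samples, which may be technical.

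Counts were tested with edgeR 4.0.16 (R 4.3.3) by the quasi-likelihood test with TMM factors and filterByExpr, which kept 14618 genes, at a Benjamini-Hochberg adjusted p-value under 0.05. CPM are TMM-scaled. The pairs of members were compared by the exact permutation test on log2 FPKM ratios. Intervals are at 95%. Alternatives were DESeq2 1.42.0, scaling by library size alone or by relative log expression, leaving out the filter, at least 10 counts in every library, a replicate block, each library left out, and limma 3.58.1 on log2(FPKM + 1), log2(FPKM + 0.1), and genes of mean FPKM of at least 1. The count fit was tested on simulated data.

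All 10 members are named. Of each other list at most the 2 highest and the 2 lowest genes that passed are named, and exceptions are stated. A gene that this rule would name is not reported here. The members, lists and tests were chosen with earlier results of these data known. Fcrls and Chil1, listed as markers, were not analysed here. Gene positions and promoters were taken from GENCODE M39 on GRCm39. Totals per library were 21385157, 23013051 and 27261839 counts in control and 20628148, 26174142 and 21813435 in stimulated cultures.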

Additional observations from a re-analysis of the deposited data

How the results depend on the processing

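The calls of Klf6, Klf7, Klf11 and Klf12 kept their direction and their side of the threshold under every alternative that could test them. Klf12, Klf4 and Klf9 could not be tested with limma at a mean FPKM of at least 1, where 1176 genes were called higher over all genes and 1 member was. The number of members called lower ran from 2 to 4 when 1 library was left out, and was 4 without stimulated library 1, which added Klf3 and Klf13. Members called lower were 3 with library size alone, DESeq2, no filter and limma, which added Klf3. Klf2 changed sign, to -0.11 with library size alone, to -0.11 with limma on log2(FPKM + 1) with or without the minimum, to -0.14 with a pseudocount of 0.1, and to -0.07 without control library 2 and -0.26 without stimulated library 2, in a range from -0.26 to 0.19. Over the 10 members and all alternatives, 132 values kept direction and side, 9 newly passed the threshold and 6 changed sign, and the causes were not tested. Genes called over all genes ran from 3249 without control library 2 to 5234 without stimulated library 1.

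Whether replicate numbers pair the samples could not be decided, since deviations from means of only 3 libraries are tied to one another. Same-numbered libraries deviated together with correlations of 0.27, -0.01 and 0.185, and the 0.27 was the highest of any control and stimulated pair. Control library 3 correlated about as well with stimulated library 2, at 0.189. With the replicate block, 2401 genes were called higher and 2523 lower, and 2 members higher and 3 lower, Klf3 being added at a log2 fold change of -0.33. Klf9 and Klf4 had the fewest counts among the members, at most 58 and 101 in a library, and what depth contributed to their intervals was not tested.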
